A study of Mus musculus with 6 samples.

Results

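Vascular calcification and chondro-osteogenic genes were examined in ATAC-seq maps of mouse vascular smooth muscle cells with and without knockdown of Arid3a. The 10 genes were Sox9, Acan, Bmp2, Bmp4, Alpl, Sp7, Msx2, Mgp, Ibsp and Tnfrsf11b, and a region belonged to a gene when it overlapped the gene body plus 20 kb on either side on mm10 RefSeq positions. Peaks of different libraries that overlapped by at least 1 base were merged into a region. This gave 33 regions, of 85174 in the genome, in the windows of 8 of the 10 genes. The 3 Arid3a knockdown libraries came from cells transfected with 1 siRNA each, si-Arid3a#1, si-Arid3a#2 and si-Arid3a#3, and the 3 negative control libraries from cells labelled Negative Control. All were primary mouse cells bought from a supplier, with 50000 cells per assay, a 30 min Tn5 reaction and 24 h between transfection and testing. The labels name no age or strain, describe a treatment with angiotensin II (Ang II) without naming the libraries that had it, and do not say whether libraries came from separate cultures. P-values therefore reflect the spread among these 6 libraries alone. That spread may be technical, and among the knockdown libraries it includes differences between siRNAs. Small interfering RNA acts on messenger RNA, so peak lists cannot check whether Arid3a was lowered.

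ATAC-seq cuts DNA with the Tn5 transposase where chromatin is open, and a peak marks a stretch with more cuts than its surroundings. In the artery wall, smooth muscle cells can take on features of cartilage and bone cells, and the matrix around them can then mineralize. In this process BMP ligands signal to homeobox and zinc finger factors, SOX9 drives cartilage matrix genes, alkaline phosphatase removes the mineral inhibitor pyrophosphate, and matrix Gla protein and osteoprotegerin hold calcification back.

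Knockdown libraries 1 to 3 held 50543, 51279 and 41629 peaks and control libraries 1 to 3 held 51330, 33248 and 52091. The median peak rested on 11, 11 and 8 sequence tags at its summit in the knockdown libraries and on 11, 8 and 11 in the control libraries. Knockdown library 3 and control library 2 therefore had the shortest lists and the fewest tags. Both are called shallow below, and control library 2, with the shortest list, the shallowest. Depth itself is not stated. The windows held 17, 21 and 13 peaks in the knockdown libraries and 19, 12 and 17 in the control libraries, which came to 3.36, 4.10 and 3.12 per 10000 peaks of the knockdown lists and 3.70, 3.61 and 3.26 per 10000 of the control lists. The groups overlapped in both numbers. Of the smooth muscle markers, 9 of 9, among them Acta2 and Myh11, had a region open in every library in the same kind of window, against 62.6% of all protein-coding genes. So did 4 of 4 fibroblast, 4 of 5 endothelial, 2 of 4 leukocyte and 2 of 5 chondrocyte markers (Sox9 and Col2a1), and the leukocyte marker Adgre1 had no region at all. The part of other cell types in the results was not tested. In bulk chromatin, fewer cells with an open site and a site less open in each cell cannot be told apart.

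The 10 genes differed in whether a gene end carried open chromatin. A region lay across one annotated end of Sox9, Alpl, Sp7, Mgp and Tnfrsf11b, 5 of the 10 genes, and across neither end of Acan, Bmp2, Bmp4, Msx2 and Ibsp. Of all 21883 protein-coding genes, 43.3% had such a region. Only those of Sox9 and Tnfrsf11b, 2 of 10, were present in 6 of 6 libraries, against 30.0% of all genes. RefSeq promoter sequences (GRCm38.p6, the assembly of mm10, from 250 bases before to 50 after the start) were at hand for 6 starts of 5 genes. Shown first are the upstream and the downstream start of Alpl, a pair within 1 gene of which only the upstream one had peaks. The promoters of Acan and Ibsp follow, one rich and one poor in CpG, and neither had a peak. Capitals mark matches to ATTAAA (Arid3a), TGANTCA (AP-1), TGTGGT (RUNX), AACAAT (SOX) or GGAATG (TEAD) on either strand. No matches overlapped each other.
Alpl upstream start, chr4:137796335-137796634, minus strand: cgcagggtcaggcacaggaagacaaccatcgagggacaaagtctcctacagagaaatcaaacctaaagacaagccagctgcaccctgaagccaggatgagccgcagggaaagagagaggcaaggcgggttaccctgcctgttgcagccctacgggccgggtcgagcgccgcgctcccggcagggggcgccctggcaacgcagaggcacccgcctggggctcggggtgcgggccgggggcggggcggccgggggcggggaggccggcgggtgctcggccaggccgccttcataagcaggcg
Alpl downstream start, chr4:137766426-137766725, minus strand: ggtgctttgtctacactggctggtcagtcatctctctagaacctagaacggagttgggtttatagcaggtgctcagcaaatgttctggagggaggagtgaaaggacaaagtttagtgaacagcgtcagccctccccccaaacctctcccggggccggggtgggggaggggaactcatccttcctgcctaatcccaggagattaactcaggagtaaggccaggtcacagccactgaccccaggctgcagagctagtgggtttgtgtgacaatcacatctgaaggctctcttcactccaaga
Acan start, chr7:79052976-79053275, plus strand: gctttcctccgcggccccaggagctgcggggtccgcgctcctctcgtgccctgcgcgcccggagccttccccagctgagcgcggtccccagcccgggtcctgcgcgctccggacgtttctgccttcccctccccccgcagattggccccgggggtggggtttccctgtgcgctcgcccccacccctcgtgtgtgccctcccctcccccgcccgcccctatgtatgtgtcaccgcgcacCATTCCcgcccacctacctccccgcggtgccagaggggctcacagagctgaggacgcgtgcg
Ibsp start, chr5:104299037-104299336, plus strand: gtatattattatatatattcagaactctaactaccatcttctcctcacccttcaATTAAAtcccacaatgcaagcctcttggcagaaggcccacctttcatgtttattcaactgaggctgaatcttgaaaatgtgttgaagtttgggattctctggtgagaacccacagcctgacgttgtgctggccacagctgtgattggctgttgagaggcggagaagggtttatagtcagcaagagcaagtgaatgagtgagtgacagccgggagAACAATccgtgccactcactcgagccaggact

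The upstream Alpl promoter had 26 CpG and 70.0% GC and overlapped a peak in knockdown libraries 2 and 3 and in control libraries 1, 2 and 3. The downstream one had 4 CpG and 54.3% GC and overlapped no peak in any library. Acan had the most CpG of the 6 promoters, 31, with 74.0% GC, yet no library had a peak there. Among all promoters with at least 31 CpG, 42.9% overlapped a peak in 6 of 6 libraries and 20.2% in none, so a CpG-rich start without a peak was not rare. The promoters of Msx2 (22 CpG), Bmp4 (12 CpG) and Ibsp (5 CpG) likewise overlapped no peak in any library. Over 32851 promoters, 21.2% had a peak in 6 of 6 libraries and 61.0% in none.

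The letters ATTAAA, taken as the Arid3a motif, occurred in 1 of the 6 promoters, that of Ibsp, at bases 55 to 60 counted from the 5′ end of the window, and in 13.9% of all promoters. AACAAT also occurred only in the Ibsp promoter, at bases 269 to 274, and in 10.7% of all promoters. GGAATG was found once, as its reverse complement at bases 239 to 244 of the Acan promoter, and in 14.7% of all promoters. TGANTCA and TGTGGT were in none of the 6, and in 7.81% and 16.8% of all promoters.

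**Figure D1:**
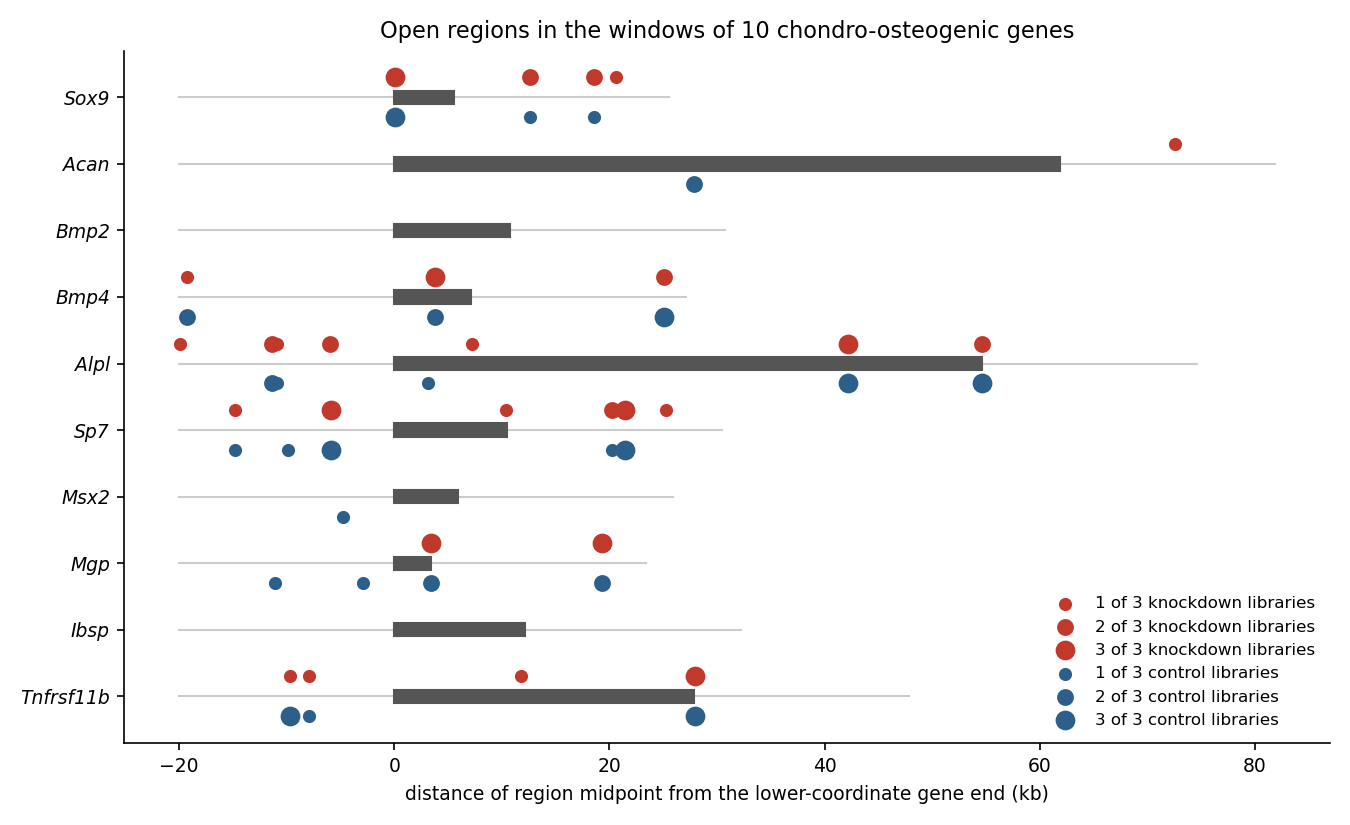
Regions in the window of each gene, by the distance of the region midpoint from the lower-coordinate end of the gene in kb, with gene bodies as grey bars and windows as thin lines. Red points above the bar stand for knockdown libraries and blue points below it for control libraries, sized by how many of 3 had a peak. The Bmp2 and Ibsp windows are empty, and no region has a point for 3 libraries in one colour with no point in the other.

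No region in the windows separated the groups. Of the 33, 0 were knockdown-only (present in 3 of 3 knockdown and 0 of 3 control libraries) and 0 were control-only, against 0.432% and 0.277% of all regions. With 33 regions, shares of that size would give less than 1 region in either class. Present in 6 of 6 libraries were 5 regions, or 15.2%, against 24.4% of all regions, and present in a single library were 12 regions, or 36.4%, against 33.5%. The 12 rested on 2 to 11 tags. Knockdown libraries were ahead by 2 or more in 1 region, at Alpl, against 4.71% of all regions, and control libraries were ahead by 2 or more in 2 regions, at Acan and Tnfrsf11b, against 3.72%. A single region cannot reach an exact permutation p below 0.1 with 3 libraries against 3. Leaving out a library loosens each class by construction, for all regions as well. Without control library 2, 8 regions were present in every library and the Acan region became control-only, against 31.5% and 1.90% of all regions in those classes. The Alpl region became knockdown-only without knockdown library 3, against 1.96% of all regions, and the Tnfrsf11b region control-only without knockdown library 1, against 0.727%.

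Counted by gene, the number of peaks in the window overlapped between the groups for each of the 10 genes. Over all protein-coding genes with a peak in any library, 1.16% had more peaks in every knockdown library than in any control library and 0.660% fewer. The exact two-sided permutation test over the 20 relabellings, run on 17730 genes, gave 0 genes with an unadjusted p under 0.05, since its smallest p is 0.1, and a smallest Benjamini-Hochberg adjusted p of 1. The median difference, knockdown minus control, was −0.17 peaks over the 8 genes tested and 0 over all genes tested. With each list shortened to its 33248 peaks of highest −log10 q, the differences of Sox9, Alpl and Sp7, which were above 0 with full lists, were each 0. Those of Acan and Msx2, −0.33 with full lists, were also 0. Those of Bmp4 and Tnfrsf11b went the other way, from −0.33 with full lists to −0.67. Single libraries decided where groups overlapped, and 3 against 2 libraries separate more genes by construction. Without knockdown library 3 Sox9 had more peaks in every remaining knockdown library, as had 5.60% of all genes tested. Without control library 1 Sp7 had more, as had 3.86%, and without control library 2 Mgp had fewer, as had 5.96%.

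**Figure D2:**
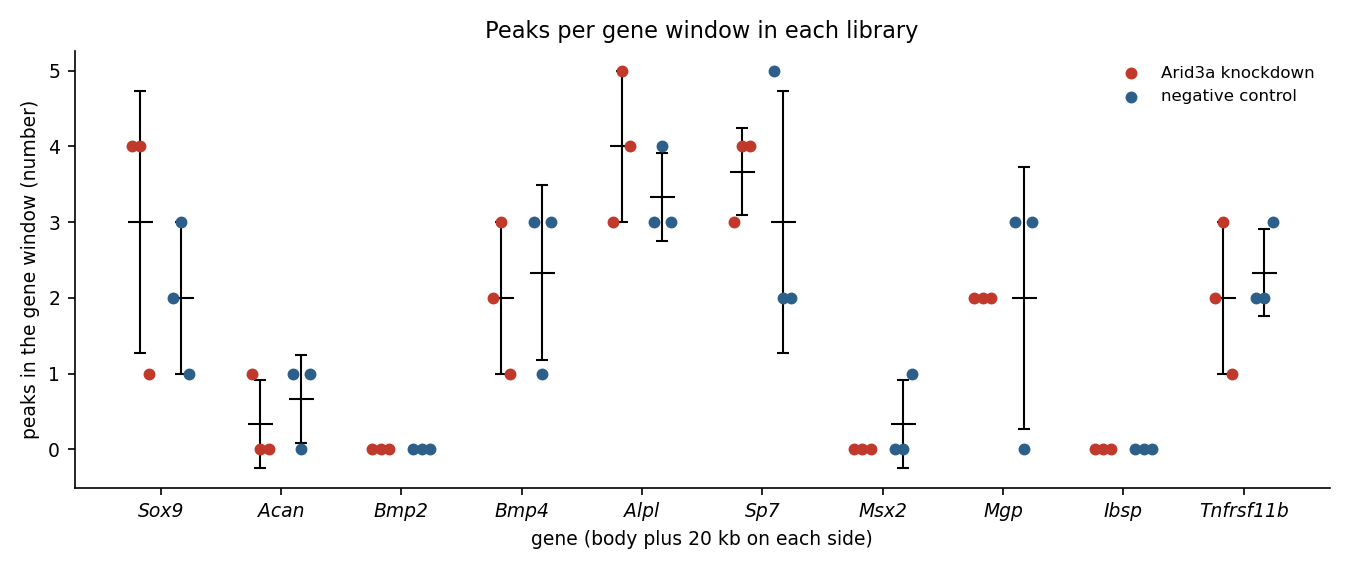
Number of peaks in the window of each gene, with 1 point per library, knockdown in red left of control in blue, and the mean and SD of 3 libraries as black bars. The points of the 2 groups overlap in every gene, and Bmp2 and Ibsp are at 0 in all 6 libraries.

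Sox9 encodes the transcription factor that starts the cartilage program, and its start was open in every library. The gene lies on chromosome 11 from 112782210 to 112787757. Its main region, 1538 bases wide at 112781462 to 112782999, spanned the lower-coordinate end. The strongest peak there held 25, 20 and 14 tags at its summit in knockdown libraries 1 to 3 and 14, 15 and 26 in control libraries 1 to 3. The authors' fold enrichment, which is scaled within a library and serves only as a description, was 9.59, 7.44 and 7.08 in the knockdown libraries and 6.09, 7.72 and 9.97 in the control libraries. Neither group was uniformly the stronger.

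The other 3 Sox9 regions lay 6.88, 12.8 and 15.0 kb above the gene and were seen more in knockdown lists, by 1 library each. The first, at 112794637 to 112794994, had 11 and 9 tags in knockdown libraries 1 and 2 and 7 tags in control library 1. The second, at 112800581 to 112800983, had 8 and 4 tags in the same knockdown libraries and 3 tags in control library 2. The third was called in knockdown library 2 alone, on 3 tags. With them the window held 4, 4 and 1 peaks in the knockdown libraries and 2, 3 and 1 in the control libraries, 3.00 ± 1.73 against 2.00 ± 1.00 (n = 3, SD), with an exact permutation p of 0.6. With the gene body alone, the difference was −0.33. The fewest peaks fell to knockdown library 3, 1 of the 2 shallow ones, and to control library 3, the longest list.

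Acan encodes aggrecan, the large proteoglycan of cartilage and a target of SOX9, and few peaks lay near it. Over 102 kb of window (chromosome 7, gene at 79053226 to 79115099) there were 2 regions. One lay inside the gene at 79080938 to 79081205, with no peak in the knockdown libraries and 6 and 4 tags in control libraries 1 and 3. It was 1 of the 3 regions ahead by 2 libraries in one group. The other, on 3 tags in knockdown library 1, lay 10.6 kb above Acan and inside the neighbouring gene Hapln3. The nearest region present in 6 of 6 libraries was 33.5 kb above the gene.

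Bmp2 and Bmp4 encode ligands of the bone morphogenetic protein family, and their surroundings differed. The Bmp2 window (chromosome 2, gene at 133552159 to 133562896) held no region in any library, as did 19.0% of the windows of all protein-coding genes. No region lay within 100 kb of Bmp2 either, which 12.1% of genes shared. The nearest, at 133671514 to 133671828, was 109 kb above the gene and was called in 2 libraries, and the nearest present in 6 of 6 was 705 kb below. Only 5.11% of protein-coding genes were farther from such a region.

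Bmp4 (chromosome 14, 46383525 to 46390669) had 3 regions, each called in both groups. The region inside the gene, at 46386861 to 46387740 and 3.37 kb below the upper end where the annotated start lies, held 9, 12 and 8 tags in knockdown libraries 1 to 3 and 15 and 17 tags in control libraries 1 and 3. It was not called in control library 2, the shallowest. A region 17.8 kb above the gene (46408428 to 46408728) had the higher authors' fold enrichment in each library that called both, 10.8 and 9.32 against 4.68 and 6.60 in knockdown libraries 1 and 2 and 11.0 and 13.8 against 7.69 and 7.77 in control libraries 1 and 3. It held 15 and 11 tags in knockdown libraries 1 and 2 and 16, 8 and 21 tags in control libraries 1 to 3. It was not called in knockdown library 3, the shallowest of its group. The third region, 19.0 kb below, had 7 tags in knockdown library 2 and 6 and 8 in control libraries 1 and 3. Tags scale with depth, so their size was not tested between the groups. The window held 2, 3 and 1 peaks in the knockdown libraries and 3, 1 and 3 in the control libraries (exact two-sided permutation p = 1). No region within 100 kb was present in 6 of 6 libraries.

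Msx2 encodes a homeobox factor that BMP signalling induces in bone and in calcifying vessels, and Sp7 encodes osterix, a zinc finger factor needed for osteoblasts. The Msx2 window (chromosome 13, gene at 53466881 to 53472780) held 1 region, 4.68 kb below the gene, on 3 tags in control library 3 and with no peak in the knockdown libraries. The nearest region in 6 of 6 libraries was 200 kb below, and 13.6% of protein-coding genes were farther from one.

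The Sp7 window (chromosome 15, gene at 102356603 to 102367035) held 7 regions and, by tags and by −log10 q, the strongest of all 33. That one lay 10.8 kb above the gene at 102377809 to 102378352, with no other annotated gene within 1 kb. Its summit held 34, 45 and 25 tags in knockdown libraries 1 to 3 and 33, 15 and 42 tags in control libraries 1 to 3. Ranked by −log10 q within each list, its peak stood at the 93.0, 97.4 and 92.4 percentile in the knockdown libraries and at the 91.8, 75.6 and 97.3 percentile in the control libraries. Only in control library 2 did it fall outside the top 10% of peaks.

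A second Sp7 region in 6 of 6 libraries, 5.54 kb below the gene at 102350313 to 102351061, spans the upper end of the neighbouring gene Aaas. It held 17, 29 and 14 tags in the knockdown libraries and 22, 18 and 23 in the control libraries. At Sp7's own upper end (102366751 to 102367222) a peak was called in knockdown library 3 alone, on 5 tags. Neither region present in 6 of 6 libraries thus lay at an end of Sp7 itself. The window held 3, 4 and 4 peaks in the knockdown libraries and 5, 2 and 2 in the control libraries (exact two-sided permutation p = 0.8).

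Alpl encodes tissue-nonspecific alkaline phosphatase, which breaks down pyrophosphate and so allows mineral to form, and it had the most regions of the 10 genes, 8. These counts are not matched for length: the Alpl window was 94.7 kb long, and that of Sp7, with 7 regions, 50.4 kb. The gene lies on chromosome 4 from 137741731 to 137796384, on the minus strand. A region inside it, at 137783636 to 137784215 and 12.5 kb below the upper end, was present in 6 of 6 libraries. Its summit held 17, 20 and 7 tags in knockdown libraries 1 to 3 and 18, 15 and 20 tags in control libraries 1 to 3. The lowest of the 6 was knockdown library 3, one of the shallow libraries, while control library 2, also shallow, was close to the deep ones.

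The region at the upstream Alpl start, 137796065 to 137796700, was weak. It had no peak in knockdown library 1, 10 and 3 tags in knockdown libraries 2 and 3, and 5, 4 and 6 tags in control libraries 1 to 3. The missing library had one of the longer lists. The peaks did not sit at one place: those of knockdown libraries 2 and 3 ran from 137796234 to 137796489 and from 137796267 to 137796482, those of control libraries 1 and 2 from 137796410 to 137796700 and from 137796481 to 137796695, and that of control library 3 from 137796065 to 137796560.

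The one region in which knockdown libraries were ahead by 2 lay 5.90 kb below Alpl, at 137735632 to 137735827. It rested on 11 and 5 tags in knockdown libraries 1 and 2, with no peak in the control libraries. Farther down, 2 regions near the neighbouring gene Rap1gap, at 137730224 to 137730573 and at 137730582 to 137730979, were 8 bases apart. The first was called in knockdown libraries 1 and 2 and control libraries 2 and 3, and the second in the other two libraries, so that together they covered all 6. Merging peaks within 100 bases, a choice made after the data were seen, joined them into a sixth region present in every library.

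A knockdown-only region lay outside the Alpl window, 48.2 kb above the gene at 137844624 to 137845117. It held 6, 5 and 8 tags in knockdown libraries 1 to 3, with authors' fold enrichments of 5.69, 4.60 and 6.88 and no peak in the control libraries. It was the only group-specific region within 100 kb of any of the 10 genes, among 134 regions. Of all regions, 0.432% were knockdown-only and 0.277% control-only, and 1 among 134 is near these shares together. Within 20 kb Alpl had 3, 5 and 4 peaks in the knockdown libraries and 3, 4 and 3 in the control libraries (exact two-sided permutation p = 0.7). Within 50 kb it had 7, 9 and 6 against 5, 4 and 5, 7.33 ± 1.53 in the knockdown and 4.67 ± 0.577 in the control libraries (n = 3, SD), with an exact permutation p of 0.1, the smallest possible, and a Benjamini-Hochberg adjusted p of 1 over all genes. All 3 knockdown libraries then stood above all 3 control libraries, as they did in 1.57% of all genes with a peak in that wider window, and in none of the other 9 genes. The knockdown-only region lies inside this wider window and its peaks are part of the knockdown counts. The region and the counts are therefore not separate results. Within 100 kb, a window chosen after the data were seen, the groups overlapped at Alpl too.

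Mgp encodes matrix Gla protein, a small matrix protein that keeps arteries from calcifying, and its upper end had a peak in all libraries but control library 2. The gene spans 136872435 to 136875823 on chromosome 6. The region at its upper end (136875541 to 136876201) held 5, 7 and 7 tags in knockdown libraries 1 to 3 and 5 and 7 tags in control libraries 1 and 3. A second region, 15.6 kb above the gene at 136891439 to 136892044, held 6, 8 and 3 tags in the knockdown libraries and 6 and 7 in the same control libraries. Control library 2, the shallowest, had no peak in the window, and both regions were weak in the others. The window held 2, 2 and 2 peaks in the knockdown libraries and 3, 0 and 3 in the control libraries (exact two-sided permutation p = 1).

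Ibsp encodes bone sialoprotein, a mineral-binding protein of bone matrix. Its window (chromosome 5, gene at 104299287 to 104311472) was empty in all 6 libraries, like that of Bmp2. The nearest region, at 104342784 to 104343065, was 31.3 kb above and called in 2 libraries, and the nearest in 6 of 6 libraries was 62.7 kb above. An empty window says that no peak passed the authors' threshold at this depth, not that the chromatin was closed.

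Tnfrsf11b encodes osteoprotegerin, the decoy receptor that binds RANK ligand. Its upper end was the clearest open gene end beside that of Sox9. The gene lies on chromosome 15 from 54250619 to 54278484, and the region at 54278083 to 54279003 held 18, 17 and 13 tags in knockdown libraries 1 to 3 and 21, 6 and 28 tags in control libraries 1 to 3. The authors' fold enrichment was 8.70, 7.63 and 7.77 in the knockdown libraries and 9.35, 4.32 and 11.3 in the control libraries. Control library 2 was the lowest and control library 3 the highest, with the knockdown libraries between them.

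The region in which control libraries led by 2 lay 9.54 kb below Tnfrsf11b, at 54240661 to 54241080. It held 12 tags in knockdown library 1 and 9, 7 and 11 tags in control libraries 1 to 3. Knockdown libraries 2 and 3 had no peak there. The other regions of this window, 7.73 kb below and inside the gene, were called in 2 libraries and in 1. The window held 2, 3 and 1 peaks in the knockdown libraries and 2, 2 and 3 in the control libraries (exact two-sided permutation p = 1).

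**Figure D3:**
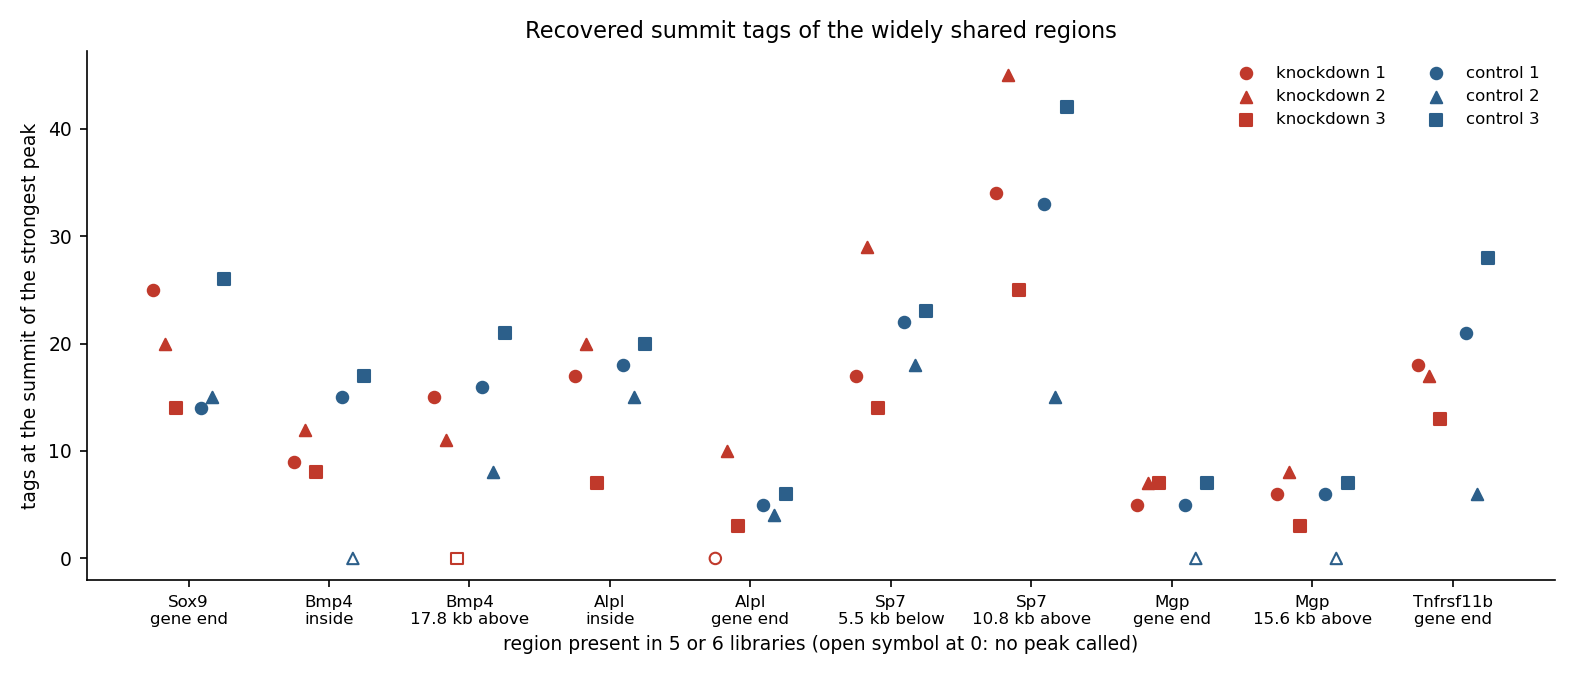
Tags at the summit of the strongest peak, for the 10 regions present in 5 or 6 libraries, by region, with knockdown libraries in red left of control libraries in blue, and marker shape giving the library number. An open symbol at 0 means that no peak was called, which in 4 of the 5 regions with such a symbol is control library 2 or knockdown library 3, the shallowest of their groups. The share of all regions present in 5 libraries that lack either of these libraries is not given here.

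The 10 regions present in 5 or 6 libraries shared few features beyond being called widely. Of the 5 regions in 5 libraries, the missing library was control library 2 for both Mgp regions and the Bmp4 region inside the gene, knockdown library 3 for the other Bmp4 region and knockdown library 1 for the Alpl start. Median tags over the libraries with a peak ran from 5 at the Alpl start to 33.5 at the Sp7 region 10.8 kb above. Regions in 6 of 6 libraries across the genome had a median of 16.5 tags, and those at Sox9, Tnfrsf11b and inside Alpl each had 17.5. By position, 11 of the 33 regions touched the body of their gene, 22 lay outside it, and 7 were within 1 kb of another protein-coding gene.

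Other genes of cartilage, bone and mineral control were counted in the same way. In 5 lists of 62 genes in all, 57 had a region in the window, 91.9% against 81.0% of all protein-coding genes. A region present in 6 of 6 libraries occurred in the windows of 33, 53.2% against 62.6%. Among the 10 genes, 4 had one. None of the 62 had groups that did not overlap in peak number. Of all genes with a peak, 1.16% had more peaks in every knockdown library and 0.660% fewer. The median difference of the 62 was 0 peaks, as over all genes. A knockdown-only region occurred in 2 of the 62 windows and a control-only region in 2, or 3.23% each, against 1.97% and 1.24% of all windows. These shares are not matched for regions per window. The 62 windows held 455 regions and the windows of all 21883 genes 100779. Of all regions, 0.432% were knockdown-only and 0.277% control-only.

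Of 13 genes of the cartilage program, 4 had a region present in 6 of 6 libraries. Sox5, which encodes a partner of SOX9, had 13 such regions among 47, and Col2a1, for the main cartilage collagen, 2 among 5. Here and in the lists below, numbers of regions per gene are not matched for window length, which grows with gene length. Sox6 had 0 among 6, and Col10a1, for the collagen of hypertrophic cartilage, no region at all. Trps1, which encodes a GATA-type repressor of cartilage and bone, had on chromosome 15, 0.714 kb below it, a region present in the knockdown libraries only (50653596 to 50654043), on 7, 5 and 5 tags.

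Of 14 genes of the osteoblast program and bone matrix, 6 had a region in 6 of 6 libraries. Runx2, the master factor of bone formation, had 9 among 35, with 26, 29 and 24 peaks in the knockdown libraries and 26, 14 and 27 in the control libraries. The low value was again that of control library 2. Dlx3 had 0 among 6 and Msx1 no region. Dlx5, a homeobox factor of bone, had a control-only region on chromosome 6, 17.2 kb below it (6859820 to 6860597), with no peak in the knockdown libraries and 4, 2 and 5 tags in the control libraries.

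Of 13 genes of mineralization inhibitors and phosphate handling, 9 had a region in 6 of 6 libraries. Enpp1, which makes pyrophosphate, had 1 among 7, and Nt5e, which makes adenosine, 2 among 4, while the transporter gene Abcc6 had 0 among 5. Ank, whose product brings pyrophosphate out of the cell, had 4 among 16, and one region of its body (chromosome 15, 27466839 to 27467194) was present in the knockdown libraries only, on 12, 11 and 5 tags.

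Of 16 BMP receptors, effectors and antagonists, 11 had a region in 6 of 6 libraries. Bmp6 and the receptor gene Bmpr1a had 1 each among 11 and 10, and Bmpr1b 2 among 13, while Bmp7, like Bmp2, had no region. Smad5, a signal carrier of BMP receptors, lay 16.1 kb below a control-only region (chromosome 13, 56758444 to 56758923), with no peak in the knockdown libraries and 6, 11 and 8 tags in the control libraries. Of the 4 group-specific regions of these lists, its smallest −log10 q, 4.58, was the highest. In the list of RANK ligand and osteoclast genes, 3 of 6 had a region in 6 of 6 libraries. Tnfrsf11a, for the receptor RANK, and Acp5 had 1 each, among 6 and 5, and Tnfsf11, for RANK ligand, and Ctsk had 0, among 6 and 2.

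**Figure D4:**
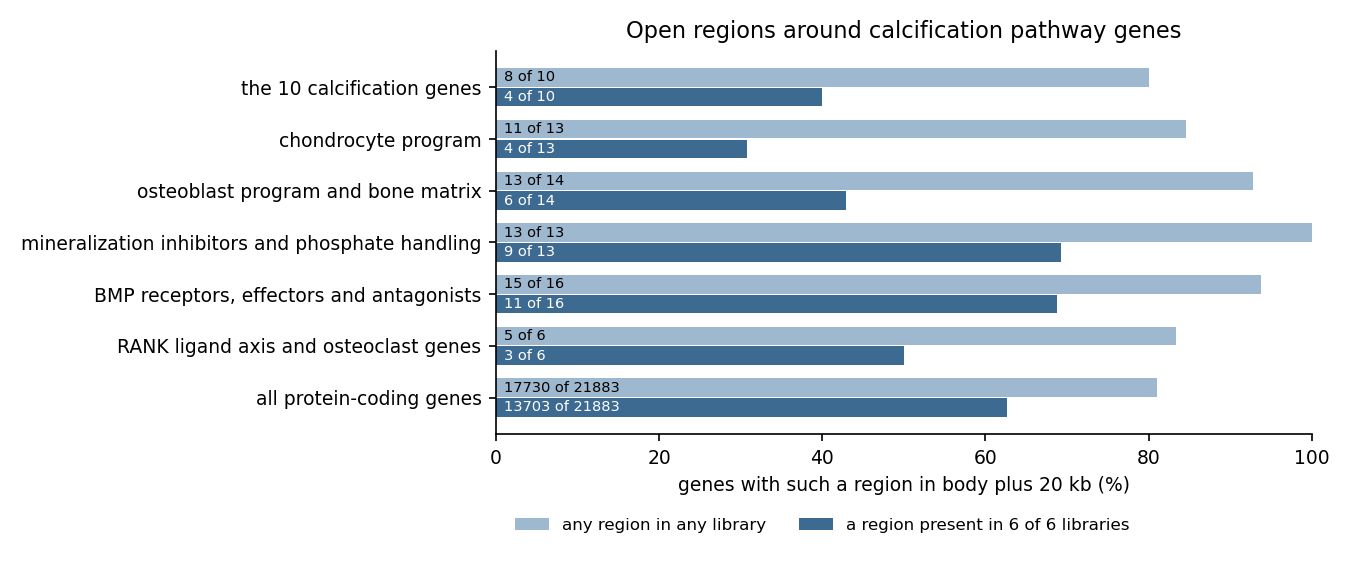
Share of genes, in %, with a region in the gene body plus 20 kb, for the 10 genes, the 5 pathway lists and all protein-coding genes. Light bars count a region in any library and dark bars a region present in 6 of 6 libraries. The dark bar is 4 of 10 for the 10 genes and 13703 of 21883 for all genes.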

How the data were processed

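The data were 6 ATAC-seq peak lists, 1 per library. Per the submitters' processing notes, Bowtie2, Picard and MACS2 and build mm10 were used. Not given in the sources used here are versions, parameters, the treatment of duplicates and any shift to the Tn5 cut site. Without a shift, summits would lie a few bases off, and kept duplicates would add tags and peaks. The authors' deposited lists give for each peak a fold enrichment at the summit (a ratio to the local background of that library), a −log10 p, a −log10 q and a score derived from the q. These describe and rank peaks within a library and entered no test. Replicates were called separately.

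Peaks were merged as regions with Python 3.11.15, pandas 2.3.3 and scipy 1.17.1. Whole tags at each summit were recovered from the deposited fold and −log10 p under the Poisson model of MACS2, to within 0.001 of the −log10 p, for at least 99.996% of peaks in each list. Depth itself is not stated, and tag numbers cover counting error only. Genes came from a RefSeq table (GRCm38.p6) without strand, so "above" and "below" mean higher and lower coordinates. Windows of 20 kb were used, and peaks per window were compared by exact permutation over libraries for all protein-coding genes. Methods were tested on simulated lists. Members and lists were chosen with earlier results of these data known. Regions named were those the rule gave (group-specific, ahead by at least 2 libraries, or the best and gene-start region in 6 of 6 libraries). Those in 5 libraries and the remaining weak ones were added after their values were seen. Pathway genes named were those with a group-specific region and otherwise the first 4 of each list. Motif letters were searched in promoters only, since no genome was used here. The alternatives were other windows, thresholds, overlaps, list lengths and libraries.

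The labels do not say that replicate numbers mark a shared batch, so the numbers were not treated as pairs. Same-numbered libraries of the 2 groups had r = 0.02, −0.05 and −0.05 over the 85174 regions for numbers 1 to 3. The values that entered r are not stated here. It does not measure how far libraries called the same regions, since 24.4% of all regions were present in 6 of 6 libraries. The largest r of any knockdown and control library, 0.09, was that of knockdown library 3 with control library 2, which had the shortest lists. Because these values may follow list length, they cannot show whether a number marks a shared batch.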

Additional observations from a re-analysis of the deposited data

How the results depend on the processing

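No alternative with the 20 kb window and all 6 libraries gave a knockdown-only or control-only region, or a gene whose groups did not overlap. The regions in every library, 5 of 33 in the main setting, were 2 of 33 when a library counted only with 50% of the region covered. They were 3 of 20 at a −log10 q of at least 5 and 3 of 11 with the gene body alone. Over all regions the share was 24.4% in the main setting, 13.7% with that cover and 25.2% at that −log10 q. With 50 kb on each side, 14 of 73 regions were in every library, with 1 knockdown-only region and 1 gene whose groups did not overlap. Both were at Alpl, where the peaks of that region count towards the gene. With 100 kb, a window chosen after the data were seen, 33 of 134 regions were in every library, with 1 knockdown-only region. In that window 0 genes had groups that did not overlap. These windows hold more or fewer regions by construction. Leaving out 1 library at a time gave 5 to 8 regions in every library, 0 to 1 knockdown-only, 0 to 1 control-only and 0 to 1 gene whose groups did not overlap. Over all regions, the same alternatives gave 26.2% to 31.5%, 0.580% to 1.96% and 0.492% to 1.90%. The 4 libraries with the longest lists gave 9 regions in every library, 2 knockdown-only (5.90 kb below Alpl and 12.8 kb above Sox9), 1 control-only (inside Acan) and 2 genes whose groups did not overlap (Sox9 and Mgp). Over all regions these 3 shares were 40.2%, 2.44% and 2.70%, and 6.43% of all genes had more and 7.77% fewer peaks in both knockdown libraries. With the replicate number as a block, 0 of the 10 genes had all 3 within-number differences of one sign, and 3 pairs allow no p below 0.25. The share over all genes with this block is not given here. Peaks per window cannot change with region cover, merging or the block. In the 14 other alternatives, 114 differences of single genes could change, of which 8 moved by more than 1 SD and 11 changed sign. Since the SD is about as large as the differences, this says little about stability. The 12 regions called in a single library rested on 2 to 11 tags.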

Other observations

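Beyond the windows, the surroundings of the 10 genes differed in how many open regions they held. Within 100 kb of Sp7 there were 24 regions, 10 of them present in 6 of 6 libraries, and within 100 kb of Alpl 26, with 7 such. Mgp had 19 with 6, Tnfrsf11b 13 with 4 and Ibsp 11 with 3. Sox9 had 12 with 2, although its own start was open in every library, and Acan had 9 with 1. Bmp4 and Msx2 had 10 regions each and none in 6 of 6 libraries, and Bmp2 had no region in any library. These counts are descriptions of windows that hold other genes as well.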
